A study of Mus musculus with 2 samples.

Results

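Metallothioneins and zinc transporters set how much zinc a cell holds, and where. They were examined here in cells sorted from mouse spleen during infection with Listeria monocytogenes. The group comprised 30 of the 30538 genes in the table, chosen by symbol: the metallothioneins Mt1 to Mt4, the regulators Mtf1 and Mtf2, and every gene whose symbol starts with Slc30a or Slc39a. A mean over both libraries of at least 1 CPM (reads of a gene relative to all counts of its library, scaled with TMM factors) was reached by 21 of them. A further 4 had counts below that level, and 5 had 0 counts in both libraries. The group was taken up after Mt2 and Mt1 had stood out in these libraries, so their ratios are given as a description.

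The design held 2 RNA-seq libraries. One came from Ch25h-/- mice, which lack the enzyme cholesterol 25-hydroxylase, and the other from C57BL/6 mice. All mice received 100000 Listeria monocytogenes intravenously, and on day 3 about 100000 cells positive for CD11b, negative for Ly6G and low for Ly6C were sorted. The labels name them resident splenic macrophages and give neither the age of the mice nor how many were pooled. The Ch25h-/- library held 15986392 counts and the C57BL/6 library 16957371 counts. Neither genotype has a replicate, so no test was possible. Each ratio therefore compares these libraries, with an exact 95% interval that covers counting error only, and a gene is called higher or lower where its ratio is at least 2-fold and the interval lies on 1 side of 1. Ch25h itself had 0 counts in the Ch25h-/- library and 3 in the C57BL/6 library, too few to check the labels. Itgam, which encodes CD11b, stood at 877 CPM in the Ch25h-/- library and 706 CPM in the C57BL/6 library. The macrophage markers Adgre1 (listed under its older symbol Emr1) and Csf1r had 23.4 and 239 CPM in the Ch25h-/- library and 39.7 and 324 CPM in the C57BL/6 library. A list of 10 natural killer cell markers summed to 17415 CPM in the Ch25h-/- library and 10744 CPM in the C57BL/6 library.

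Metallothioneins are small proteins rich in cysteine that bind zinc and copper and buffer them in the cytosol. Free zinc activates the transcription factor MTF1, which binds metal response elements in metallothionein promoters and switches the genes on; glucocorticoids, inflammatory cytokines and oxidants also induce them. Proteins of the SLC30 family (ZnT) move zinc out of the cytosol, across the cell surface or into organelles, and proteins of the SLC39 family (ZIP) move it into the cytosol. During infection macrophages are known to redistribute zinc, withholding it from microbes in some compartments and loading it into others.

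Mt2 and Mt1 lie next to each other on the plus strand of chromosome 8 (GRCm38; Mt2 at chr8:94172664-94173568, Mt1 at chr8:94179082-94180327). Their coding sequences, from 1 GENCODE M21 transcript of each gene, are shown because the results turn on this pair and on whether reads can be told apart between them. Capitals mark the in-frame cysteine codons (TGC or TGT), of which each gene has 20 among the 61 codons before the stop.
Mt2: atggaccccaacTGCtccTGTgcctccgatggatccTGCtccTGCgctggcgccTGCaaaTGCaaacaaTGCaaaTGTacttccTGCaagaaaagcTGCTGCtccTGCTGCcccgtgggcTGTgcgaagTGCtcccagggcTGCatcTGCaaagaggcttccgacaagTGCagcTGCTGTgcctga
Mt1: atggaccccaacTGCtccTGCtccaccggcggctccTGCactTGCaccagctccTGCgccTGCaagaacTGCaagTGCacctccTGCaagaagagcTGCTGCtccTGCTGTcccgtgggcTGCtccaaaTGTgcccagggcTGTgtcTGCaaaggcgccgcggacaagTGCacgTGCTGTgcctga
The coding sequences have 186 bases each, of which 148 are identical position by position (79.6%). The longest run of bases that both whole transcripts share is 20, and no run of 25 bases is shared. Read length is not given in the sources used here.

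The promoter windows of this pair, and that of the zinc exporter gene Slc30a1, carry the core of the metal response element. They are shown because Mt1, Mt2 and Slc30a1 are the best known mouse genes driven by MTF1, while their ratios between the libraries differ. Each window runs from 250 bases before to 50 bases after the start in RefSeq (GRCm38.p6), on the plus strand. Capitals mark matches of the cores TGCACNC and TGCGCNC on either strand.
Mt2, chr8:94172368-94172667: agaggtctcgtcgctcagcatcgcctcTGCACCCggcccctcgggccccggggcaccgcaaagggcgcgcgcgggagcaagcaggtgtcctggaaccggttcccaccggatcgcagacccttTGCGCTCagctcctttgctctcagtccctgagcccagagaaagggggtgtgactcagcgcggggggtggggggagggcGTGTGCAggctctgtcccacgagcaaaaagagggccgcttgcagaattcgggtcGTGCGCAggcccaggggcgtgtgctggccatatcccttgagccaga
Mt1, chr8:94178839-94179138: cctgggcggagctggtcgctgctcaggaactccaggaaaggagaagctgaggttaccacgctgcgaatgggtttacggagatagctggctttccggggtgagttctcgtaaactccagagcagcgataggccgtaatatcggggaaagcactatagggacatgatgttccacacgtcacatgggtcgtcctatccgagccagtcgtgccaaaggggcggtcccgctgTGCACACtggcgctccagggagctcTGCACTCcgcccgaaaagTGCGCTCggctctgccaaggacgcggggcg
Slc30a1, chr1:191906531-191906830: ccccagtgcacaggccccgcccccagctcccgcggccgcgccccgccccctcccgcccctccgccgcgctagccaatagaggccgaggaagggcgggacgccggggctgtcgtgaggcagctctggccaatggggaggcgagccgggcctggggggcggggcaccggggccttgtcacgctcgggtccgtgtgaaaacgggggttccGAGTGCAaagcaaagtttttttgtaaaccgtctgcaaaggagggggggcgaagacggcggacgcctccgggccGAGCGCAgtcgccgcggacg
The Mt2 window held 4 matches, 2 on each strand, the Mt1 window 3, all on the plus strand, and the Slc30a1 window 2, both on the minus strand. At least 1 match stood in 25.7% of all 32851 promoter windows of the same length, and at least 3 matches in 1.97%. Among the group, RefSeq windows were matched for 26 genes (not for Slc30a8, Slc39a4, Slc39a6 and Slc39a14), and 16 of the 26 held a core. Slc30a10, which had 0 counts in both libraries, and Slc30a4 also had 3 matches. The annotated starts lie upstream of a TATAAA sequence, which follows 89 bases into the Mt2 transcript and 128 bases into the Mt1 transcript. The stretch before it holds 3 matches in Mt2 and 4 in Mt1. Both printed windows end before this TATAAA. The Mt2 window ends at 94172667, just past the annotated gene start of 94172664, so it leaves out nearly all of that stretch. The 3 matches there are not among the 4 marked. From the Mt1 window part of the stretch is missing. Counts of every motif therefore describe the windows and not the whole promoters. Among the other motifs searched on both strands, Mt2 alone of these 26 genes held TGACTCA, the site of AP-1, which 5.20% of all windows hold. That match overlaps one of TGACNNNGC, the antioxidant response element core, found in 12.4% of windows. GAANNTTC, a heat shock element core, was in neither metallothionein window and in 7.86% of all windows, and the E-box CACGTG was likewise in neither of them and in 7.15% of all. A match describes the letters in the window and shows no binding.

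Mt2 and Mt1 were called lower in the Ch25h-/- library, and none of the other 19 measured genes passed the 2-fold rule in either direction. Over all 11972 measured genes, 5.77% were called lower and 2.07% higher. Since the pair was known when the group was chosen, nothing is read from its count against that background. Mt2 had 51 counts in the Ch25h-/- library and 892 in the C57BL/6 library, equal to 3.22 CPM in the Ch25h-/- library and 52.1 CPM in the C57BL/6 library. That is 16.2-fold lower in the Ch25h-/- library (95% interval 12.2 to 21.9-fold), a log2 ratio of -4.02. Mt1 had 82 counts in the Ch25h-/- library and 586 in the C57BL/6 library, equal to 5.18 CPM in the Ch25h-/- library and 34.2 CPM in the C57BL/6 library. Its level was 6.62-fold lower (interval 5.24 to 8.44-fold), a log2 ratio of -2.73 (-3.08 to -2.39). Only 8 measured genes had a smaller ratio than Mt2 and 46 a smaller ratio than Mt1. Restricted to the 8926 genes averaging 10 CPM or more, these numbers were 0 and 7. Both genes reach that mean only through the C57BL/6 library, so the restriction favours their place. Nothing is read from these ranks, since the pair was known beforehand.

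The ratios of the pair differed. Mt2 exceeded Mt1 in the C57BL/6 library and was below it in the Ch25h-/- library: its counts were 0.622 times those of Mt1 in the Ch25h-/- library and 1.52 times in the C57BL/6 library. The log2 ratio of Mt2 was lower than that of Mt1 by a difference of -1.29 (exact interval of the odds ratio, -1.85 to -0.74), beyond counting error. Mt2 made up 38.3% of the counts of both genes in the Ch25h-/- library (Clopper-Pearson interval 30.1 to 47.2%) and 60.4% in the C57BL/6 library (57.8 to 62.9%). An exon of Gm45774, annotated on the opposite strand, overlaps Mt2, and the strand setting of the counting is not given in the sources used here. Gm45774 itself is not among the genes counted. Mt1 has no overlapping exon of another gene.

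The remaining metallothioneins contributed almost nothing. Mt3, which is known as a brain metallothionein, had 2 counts in the Ch25h-/- library and 9 in the C57BL/6 library. Mt4, known from stratified squamous epithelium, had 0 counts in both, and 0 counts allow a level of up to 0.189 CPM in the Ch25h-/- library and 0.175 CPM in the C57BL/6 library, at 3 counts. Mt1 and Mt2 together summed to 133 counts (8.40 CPM) in the Ch25h-/- library and 1478 counts (86.4 CPM) in the C57BL/6 library, 10.3-fold lower (8.61 to 12.4-fold). They took 0.882% of the counts of the whole group in the Ch25h-/- library (interval 0.739 to 1.04%) and 8.61% in the C57BL/6 library (8.20 to 9.04%).

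**Figure D1:**
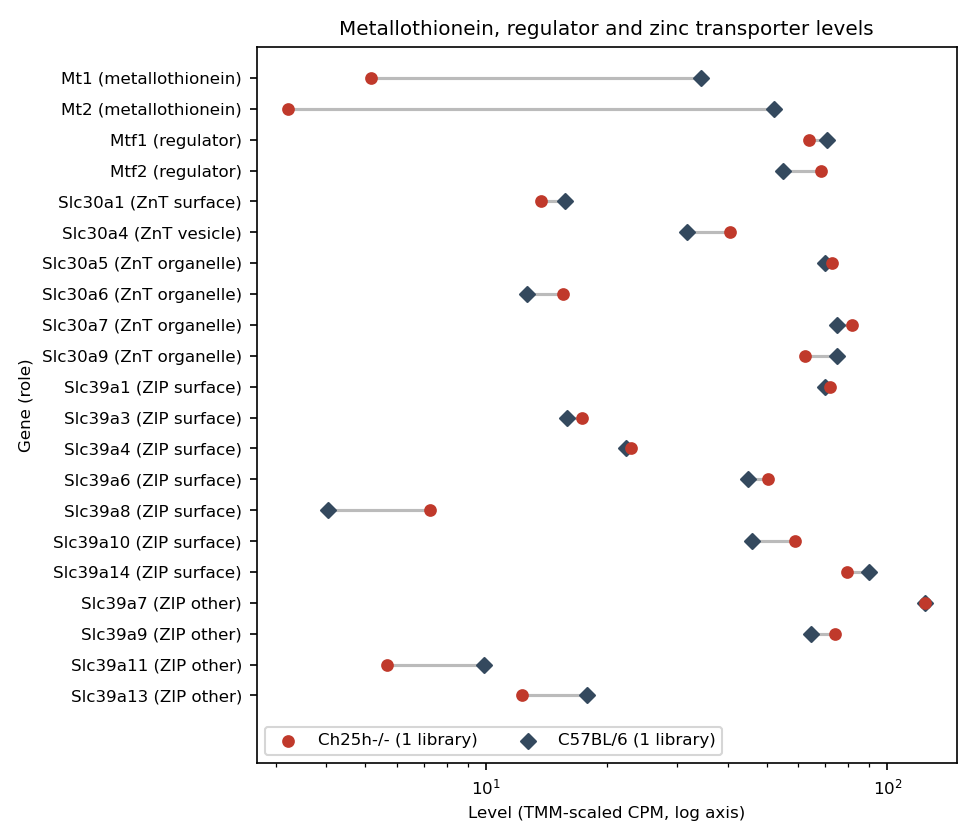
Level of each of the 21 measured genes, in TMM-scaled CPM on a log axis, with the Ch25h-/- library as circles and the C57BL/6 library as diamonds (1 library each; the role of each gene stands in brackets). The lines of Mt2 (3.22 CPM in Ch25h-/-, 52.1 CPM in C57BL/6) and Mt1 (5.18 CPM in Ch25h-/-, 34.2 CPM in C57BL/6) are the longest, and Slc39a7 lies at the same level in both.

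Expressed per length, metallothionein RNA ranked among the most abundant of the group in the C57BL/6 library. In the Ch25h-/- library it ranked around or below the middle. These ranks run over the 25 genes with counts, 4 of them under 1 CPM. With counts divided by the length of the annotated exons and scaled to the same sum in each library (TPM), Mt2 had 20.5 TPM in the Ch25h-/- library, rank 13 of the 25 detected genes, and 343 TPM in the C57BL/6 library, rank 1. Mt1 had 15.6 TPM in the Ch25h-/- library, rank 17, and 106 TPM in the C57BL/6 library, rank 4. The ER zinc release gene Slc39a7 led in the Ch25h-/- library with 180 TPM and held 186 TPM in the C57BL/6 library. Slc39a1, a zinc importer of the cell surface, had 114 TPM in each. These lengths cover every annotated exon, 1246 bases for Mt1, whose transcript shown above has 549. With the first-numbered transcript of each gene as its length, a choice made after seeing the data, Mt1 had 21.6 TPM in the Ch25h-/- library (rank 11) and 146 TPM in the C57BL/6 library (rank 2). Mt2 then had 14.4 TPM in the Ch25h-/- library (rank 16) and 239 TPM in the C57BL/6 library (rank 1), so the order of the pair in the Ch25h-/- library depended on the length used. By all annotated exons, Mt1 and Mt2 together made up 4.85% of the TPM of the group in the Ch25h-/- library and 38.8% in the C57BL/6 library.

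The genes of the regulators stood close to level. Mtf1, the zinc sensor and transcription factor, had 63.8 CPM in the Ch25h-/- library and 70.7 CPM in the C57BL/6 library, a log2 ratio of -0.15 (interval -0.27 to -0.03). Mtf2, whose name refers to the metal response element but whose product is known as an accessory subunit of Polycomb repressive complex PRC2, had 68.2 CPM in the Ch25h-/- library and 55.1 CPM in the C57BL/6 library (0.31, interval 0.18 to 0.44). Neither reached 2-fold. Exons of 1110065P20Rik and Tmed5 on the opposite strand overlap Mtf1 and Mtf2. In all, 9 of the 21 measured genes share an exonic stretch with another annotated gene. For Mtf1, Mtf2, Slc39a9 and Slc39a13 that gene was counted too, and how the counting divided such reads is not given in the sources used here. The overlapping genes of the others are not among the genes counted.

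Exporters of the ZnT family stayed within a narrow range. All 6 measured Slc30a genes had a log2 ratio between -0.27 and 0.35, with a median of 0.09, beside a median of 0.01 over all measured genes. Slc30a1, which exports zinc across the cell surface and is itself induced by MTF1, had 217 counts (13.7 CPM) in the Ch25h-/- library and 270 counts (15.8 CPM) in the C57BL/6 library. Its log2 ratio was -0.20, and the interval of -0.47 to 0.06 includes 0. The vesicular transporter gene Slc30a4 stood at 40.5 CPM in the Ch25h-/- library and 31.7 CPM in the C57BL/6 library (0.35, interval 0.19 to 0.52).

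Transporters of the secretory pathway were near level too. Slc30a5 and Slc30a6, whose products pair to load zinc into enzymes of the early secretory pathway, had log2 ratios of 0.05 (interval -0.07 to 0.17) and 0.30 (0.04 to 0.57). Slc30a7, a Golgi transporter, had the highest mean CPM of the family, at 81.9 CPM in the Ch25h-/- library and 74.9 CPM in the C57BL/6 library (0.13). Slc30a9, a mitochondrial zinc exporter, leaned the other way with 62.2 CPM in the Ch25h-/- library and 75 CPM in the C57BL/6 library, level with Slc30a7 there (-0.27, interval -0.39 to -0.15). Among the rest, Slc30a2 had 3 counts in each library, and Slc30a3, Slc30a8 and the manganese exporter gene Slc30a10 had none. The whole family summed to 287 CPM in the Ch25h-/- library and 280 CPM in the C57BL/6 library, a log2 ratio of 0.03 (interval -0.03 to 0.09).

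Importers of the ZIP family spread more widely, and those with the largest ratios were expressed at low levels. Slc39a8, which imports zinc and manganese, had the highest ratio of Ch25h-/- over C57BL/6 in the whole group, though under 2-fold. Its 115 counts in the Ch25h-/- library (7.26 CPM) stood against 69 counts in the C57BL/6 library (4.03 CPM), a log2 ratio of 0.85 with an interval of 0.41 to 1.30. Its close relative Slc39a14, which carries zinc, manganese and iron and is induced by interleukin-6 in mouse liver, was far more abundant and leaned the other way. It had 79.3 CPM in the Ch25h-/- library and 89.9 CPM in the C57BL/6 library (-0.18, interval -0.29 to -0.07). The log2 ratio of Slc39a8 exceeded that of Slc39a14 by 1.03 (exact interval of the odds ratio, 0.57 to 1.496).

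Slc39a11 had the lowest ratio outside the metallothioneins, with 90 counts (5.68 CPM) in the Ch25h-/- library and 169 counts (9.88 CPM) in the C57BL/6 library (-0.80, interval -1.18 to -0.42). Slc39a13, a transporter of Golgi and vesicle membranes, followed with 12.3 CPM in the Ch25h-/- library and 17.8 CPM in the C57BL/6 library (-0.53, interval -0.80 to -0.27). Its exons overlap those of the proteasome gene Psmc3 on the opposite strand, which had 1839 counts in the Ch25h-/- library and 1837 in the C57BL/6 library. Slc39a8 and Slc39a11 would be called at 1.5-fold, a threshold that 7.35% of all measured genes pass as higher and 11.2% as lower.

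Slc39a10 and Slc39a6, whose products form a complex at the cell surface, were slightly higher. Slc39a10 had 59.0 CPM in the Ch25h-/- library and 46.1 CPM in the C57BL/6 library (0.36, interval 0.22 to 0.50), and Slc39a6 had 50.3 CPM in the Ch25h-/- library and 45.0 CPM in the C57BL/6 library (0.16, interval 0.02 to 0.31). The log2 ratio of the Golgi transporter gene Slc39a9 was 0.20 (interval 0.08 to 0.32). Counting error covered the ratios of Slc39a1 (0.04), Slc39a3 (0.13), Slc39a4 (0.05) and Slc39a7 (0.00). Slc39a7 alone took 23.7% of the Slc39a counts in the Ch25h-/- library (Clopper-Pearson interval 22.8 to 24.6%) and 24.3% in the C57BL/6 library (23.4 to 25.3%). Slc39a2 had 9 counts in the Ch25h-/- library and 12 in the C57BL/6 library, Slc39a12, a gene known from brain, had 1 in the Ch25h-/- library and 2 in the C57BL/6 library, and Slc39a5, known from intestine and pancreas, had 0 in both. All Slc39a genes together reached 525 CPM in the Ch25h-/- library and 510 CPM in the C57BL/6 library (0.04), and the interval of -0.0023 to 0.08 includes 0.

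**Figure D2:**
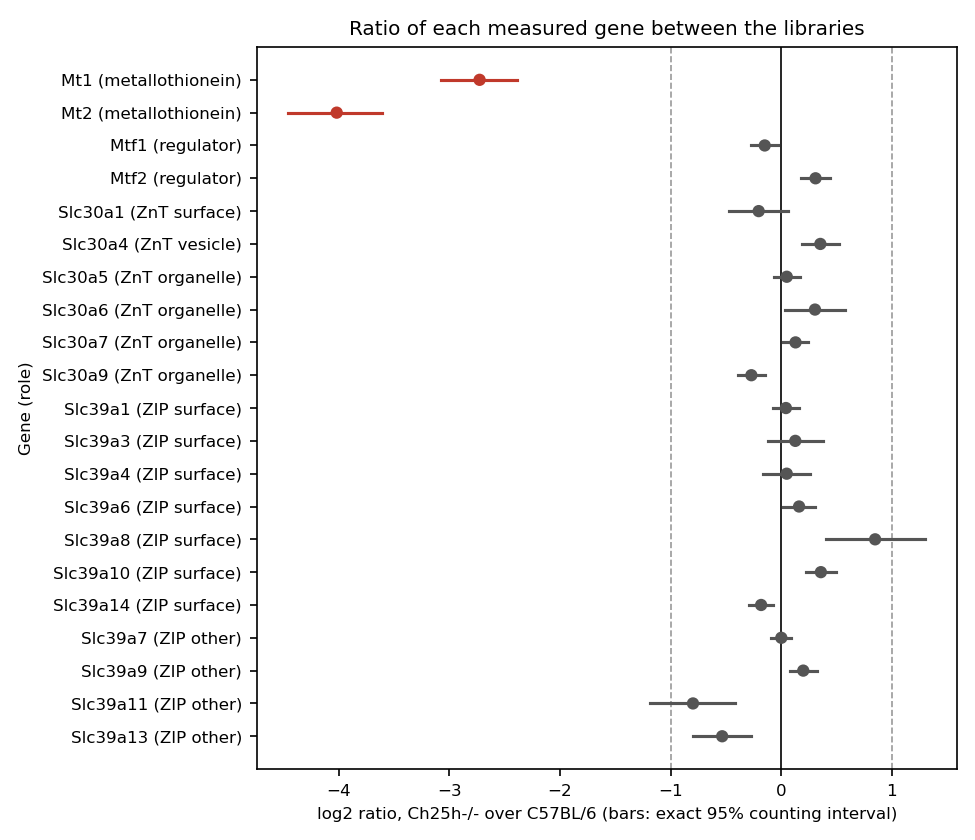
Log2 ratio of Ch25h-/- over C57BL/6 for the 21 measured genes, with exact 95% counting intervals as bars. Dashed lines mark 2-fold. Mt1 (-2.73) and Mt2 (-4.02), in red, lie beyond the dashed line with their whole intervals, and the other 19 genes lie between -0.80 and 0.85.

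Leaving out Mt1 and Mt2, the log2 ratios of the other 19 measured genes had a median of 0.05 and quartiles of -0.17 and 0.25. Over all measured genes the quartiles were -0.26 and 0.25. A log2 ratio under 0.5 in size was found for 16 of these 19 genes (84.2%), beside 75.8% of all measured genes. Counting intervals of 8 of the 19 lay above 0, those of 5 below 0, and those of 6 included 0.

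The genes around the metallothionein cluster had ratios closer to level. Within 500 kb of the start of Mt2, 12 other genes were measured and 0 of them were called. Over all measured genes 5.77% were called lower and 2.07% higher, so the absence of calls among so few is not read as a result. Their median log2 ratio was 0.09, and the extremes were -0.78 (Herpud1) and 0.27 (Nup93). The nearest measured neighbours were Nup93, 41.9 kb downstream with 49.0 CPM in the Ch25h-/- library and 40.6 CPM in the C57BL/6 library, and Bbs2, whose start lies 73.7 kb upstream. Bbs2 had 105 counts in the Ch25h-/- library and 182 in the C57BL/6 library (-0.68, interval -1.04 to -0.33). No other measured gene in the window reached 2-fold.

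**Figure D3:**
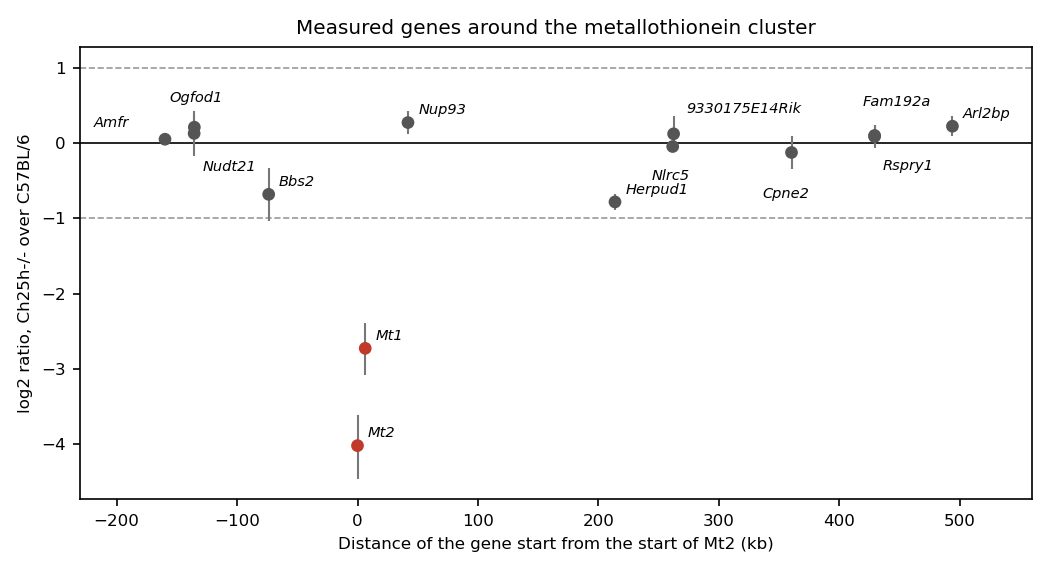
Log2 ratio of Ch25h-/- over C57BL/6 for the measured genes within 500 kb of the start of Mt2, against the distance of each gene's start in kb, with exact 95% counting intervals. Mt2 (-4.02) and Mt1 (-2.73), in red, lie below the dashed 2-fold line, and the 12 other genes lie between -0.78 and 0.27.

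Other genes reported to answer to MTF1 in mouse stayed under 2-fold. Of 4 such genes outside the group, all measured, 0 were called. With 5.77% of all measured genes called lower and 2.07% higher, little can be read from that. Ndrg1, the most abundant, had 394 CPM in the Ch25h-/- library and 609 CPM in the C57BL/6 library (-0.63, interval -0.67 to -0.58). Gclc, which encodes the catalytic subunit that starts glutathione synthesis, stood at -0.35, Selenow (listed under its older symbol Sepw1) at 0.09 and Csrp1 at 0.02.

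Further genes of metal binding and transport stayed under 2-fold too. In a list of 9, 8 were measured and 0 called, with 5 log2 ratios above 0 and 3 below. Again, little can be read from 0 calls, beside 5.77% lower and 2.07% higher over all measured genes. S100a8 and S100a9, which form the zinc-binding protein calprotectin, had 334 and 416 CPM in the Ch25h-/- library and 192 and 270 CPM in the C57BL/6 library (0.80 and 0.63). Both are abundant in neutrophils. Slc40a1, the iron exporter ferroportin, stood at 0.72 and the phagosomal metal transporter gene Slc11a1 at -0.58 (81.7 CPM in the Ch25h-/- library and 122 CPM in the C57BL/6 library). The zinc receptor gene Gpr39 had 0 counts in both.

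Copper genes, relevant because metallothioneins also bind copper, were mostly level, with a median log2 ratio of -0.15. Of 13 measured genes 2 were called lower, both scarce, beside 5.77% of all measured genes. The copper pump gene Atp7b had 9 counts in the Ch25h-/- library and 37 in the C57BL/6 library (-1.93, interval -3.16 to -0.85), and the mitochondrial copper chaperone gene Sco2 had 16 in the Ch25h-/- library and 45 in the C57BL/6 library (-1.38, interval -2.30 to -0.53). The cytosolic copper chaperone gene Atox1 stood at -0.67, and Atp7a, with the highest mean CPM of the list, at -0.15 (42.0 CPM in the Ch25h-/- library and 46.7 CPM in the C57BL/6 library).

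Genes of other signals that induce metallothioneins were listed as well, and the part of these signals in the metallothionein values was not tested. Glucocorticoid-responsive genes leaned lower, with 8 log2 ratios below 0 and 2 above. NRF2 targets went both ways, with 5 below 0 and 3 above. Among 10 glucocorticoid-responsive genes, 3 were called lower and 0 higher, with a median log2 ratio of -0.62. Over all measured genes, 5.77% were called lower and 2.07% higher. Dusp1, a phosphatase that switches off MAP kinases, had 160 CPM in the Ch25h-/- library and 522 CPM in the C57BL/6 library (-1.71). Klf9 (-1.41) and the clock gene Per1 (-1.06) were the others called, while the standard glucocorticoid targets Tsc22d3 and Fkbp5 stood at -0.59 and -0.13. NRF2 targets had a median of -0.08 over 8 measured genes. Among them the cystine transporter gene Slc7a11 was called lower (30.4 CPM in the Ch25h-/- library and 73.7 CPM in the C57BL/6 library, -1.28), Hmox1 stood at -0.66, Prdx1 at 0.50 and the most abundant, Txnrd1, at -0.06.

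Heat shock genes, which respond to metals and to the handling of cells, had a median log2 ratio of -0.56 over 10 measured genes. Of these, 2 were called lower, beside 5.77% of all measured genes. Both were copies of the inducible Hsp70 gene: Hspa1b had 19.8 CPM in the Ch25h-/- library and 279 CPM in the C57BL/6 library (-3.82), and Hspa1a had 14.6 CPM in the Ch25h-/- library and 172 CPM in the C57BL/6 library (-3.56). These copies are nearly identical, so the division of reads between them is uncertain. Bag3 stood at -0.88, and the most abundant, the constitutive Hspa8, at -0.02. The part of these stress transcripts in the metallothionein values was not tested.

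Markers of several cell types also differed between the libraries, and in bulk material fewer cells of a type and less RNA per cell cannot be told apart. The counts called below stand beside 5.77% lower and 2.07% higher over all measured genes. Conventional dendritic cell markers summed to 463 CPM in the Ch25h-/- library and 654 CPM in the C57BL/6 library, with 6 of 7 measured genes called lower (Esam at -2.66, Batf3 at -2.14). Itgax, the most abundant of the list, leaned higher, with 336 CPM in the Ch25h-/- library and 272 CPM in the C57BL/6 library (0.30). It made up most of the sum in the Ch25h-/- library. Xcr1, which marks a dendritic cell subset, had 6 counts in the Ch25h-/- library and 0 in the C57BL/6 library. Clec9a had 13 counts in the Ch25h-/- library and 5 in the C57BL/6 library, and Cd209a had 5 and 11 in that order. Markers of mature migratory dendritic cells summed to 714 CPM in the Ch25h-/- library and 2444 CPM in the C57BL/6 library, with 7 of 8 called lower (Ccl22 at -2.30, Il4i1 at -2.14). Red pulp macrophage markers reached 218 CPM in the Ch25h-/- library and 341 CPM in the C57BL/6 library, with 3 of 10 called lower (C1qa at -1.40, Cd163 at -1.33). For marginal zone and metallophilic macrophages the sums were 64.5 CPM in the Ch25h-/- library and 114 CPM in the C57BL/6 library, with 2 of 5 called lower (Marco at -1.56, Siglec1 at -1.08) and Cd209b at 0 counts in both. B cell markers summed to 862 CPM in the Ch25h-/- library and 1399 CPM in the C57BL/6 library, with 1 of 8 called lower (Ebf1 at -1.10).

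The remaining lists had higher sums in the Ch25h-/- library, though not all had higher ratios. Their counts called stand beside the same 2.07% higher and 5.77% lower. Of the natural killer cell markers summed above, 4 of 10 were called higher (Ncr1 at 1.46, Xcl1 at 1.20). Neutrophil markers summed to 2069 CPM in the Ch25h-/- library and 1136 CPM in the C57BL/6 library, with 5 of 10 called higher (Ly6g at 2.47 from 41 counts in the Ch25h-/- library and 8 in the C57BL/6 library, Mmp9 at 1.18). Ly6C-high monocyte markers summed to 2220 CPM in the Ch25h-/- library and 1564 CPM in the C57BL/6 library, with 2 of 6 called higher (Ccr2 at 1.19, Vcan at 1.02). Ly6C-low monocyte markers reached 3107 CPM in the Ch25h-/- library and 2632 CPM in the C57BL/6 library. Most of that was Itgal, with 1784 CPM in the Ch25h-/- library and 1341 CPM in the C57BL/6 library. However, 7 of the 10 log2 ratios lay below 0, with a median of -0.32 and 1 gene called lower (Fcgr4 at -1.13, then Ear2 at -0.76). T cell markers reached 457 CPM in the Ch25h-/- library and 422 CPM in the C57BL/6 library. Lck alone had 320 CPM in the Ch25h-/- library and 186 CPM in the C57BL/6 library, so the higher sum rests on this gene. The list had a median of 0.21, 3 of 7 log2 ratios below 0 and 1 gene called lower (Il7r at -1.03, then Tcf7 at -0.97). With a filter at 5 CPM its median was -0.0075. The part of the cell makeup in the metallothionein values was not tested.

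**Figure D4:**
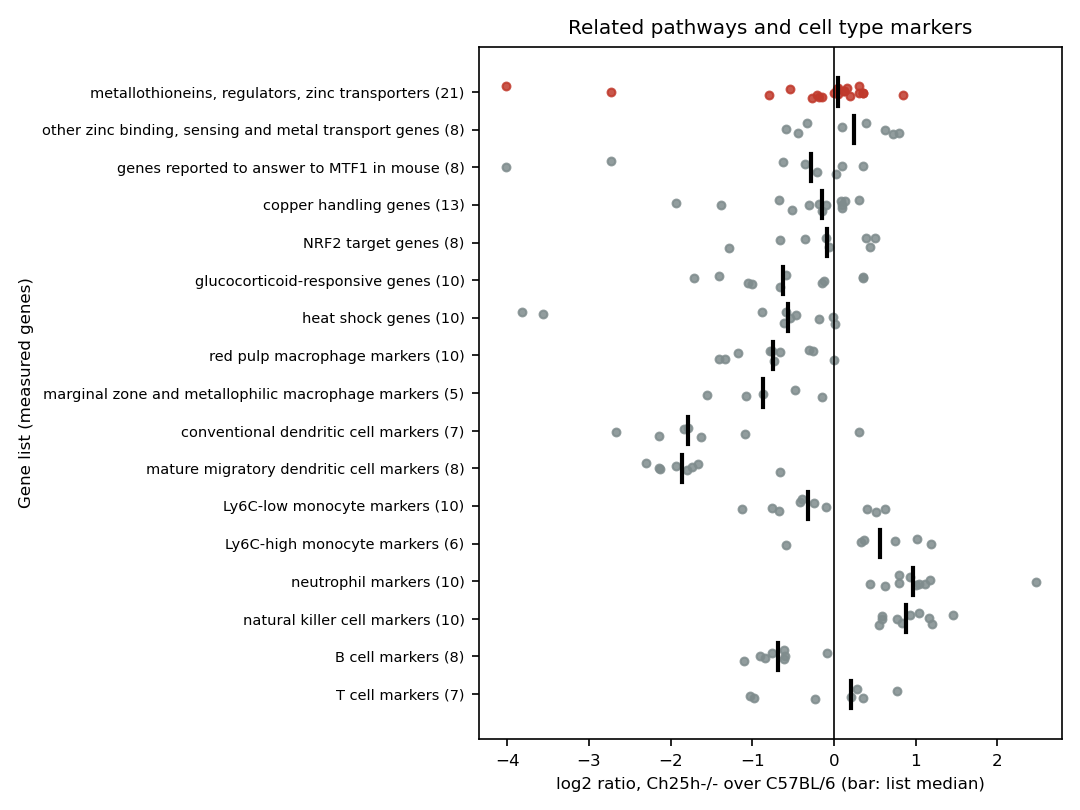
Log2 ratio of Ch25h-/- over C57BL/6 for the measured genes of each list, with the list median as a bar and the number of measured genes in brackets. The 21 genes of the group, in red, have a median of 0.05 with Mt1 and Mt2 far below it. Medians run from -1.86 for mature migratory dendritic cell markers to 0.97 for neutrophil markers.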

How the data were processed

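RNA from the sorted cells was isolated with TRIzol, and the KAPA RNA HyperPrep kit was used for library construction, per the labels' protocols. The table the authors deposited holds whole read counts per gene. As tools, the submitters' processing notes list GSNAP, featureCounts, Subread 1.5.2, FastQC 0.11.9 and edgeR 3.26.8, with GRCm38 (mm10) as build. Strand setting and treatment of multiply mapping reads are not given in the sources used here.

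CPM values use TMM factors (0.991 for Ch25h-/-, 1.01 for C57BL/6) from edgeR 4.0.16 in R 4.3.3. Ratios are Ch25h-/- over C57BL/6 without a prior count. Intervals are 95% Clopper-Pearson intervals, and exact conditional odds ratio intervals between genes (scipy 1.17.1, numpy 2.4.6, pandas 2.3.3, Python 3.11.15). They cover the counting error of reads alone, since each genotype has 1 library. Reads lacking molecular identifiers may be copies, so the intervals may be too narrow even for that. A count of 0 is set to a floor of 3 counts for a fold. Lengths, positions and overlaps come from GENCODE M21, which holds 30126 of the gene IDs, and promoter windows from RefSeq. The scaling, the intervals and the call rule were tried on simulated counts. Those counts held counting error only, as the intervals assume, so spread between libraries was not tested. The group, the gene lists (6 of pathways, 10 of cell type markers) and the thresholds were chosen with earlier results of these data known. All group members are named; of pathway lists those called, the 3 largest ratios in size and the most abundant gene; of marker lists the 2 largest ratios, except 1 B cell marker that is not reported here. The locus window and its genes, Slc11a1, Gpr39, Tsc22d3, Fkbp5, Xcr1, Clec9a, Cd209a, Itgax, Lck, Itgal and Cd209b were added after the values were seen. Alternatives covered scaling (DESeq2 1.42.0, totals, upper quartile, TMM without marker genes), low-count filters, a prior count of 2, other call rules and other lengths. Figures were drawn with matplotlib 3.10.9.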

Additional observations from a re-analysis of the deposited data

How the results depend on the processing

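Mt1 and Mt2 were the genes of the group called lower under all 9 alternatives, joined by Slc39a11 at 1.5-fold, where Slc39a8 made 1 call in the higher direction against 0 at 2-fold. Filters cannot change the ratio of a single gene, and scalings shifted all ratios together by -0.03 to 0.01. The log2 ratios of single members could therefore hardly move, and all 147 recomputed values stayed within their counting intervals. Of 189 recomputed list medians, 188 were marked as unchanged, but no counting interval is given here for a median. The exception was the median of the metallothioneins, which became -2.73 with no filter beyond 1 count, a setting that adds Mt3. Under that setting the median of the conventional dendritic cell markers went from -1.79 to -1.35. Over all genes, 691 lower and 248 higher became 347 and 120 with a filter at 5 CPM, 318 and 67 with the whole interval beyond 2-fold, and 1344 and 880 at 1.5-fold; no filter beyond 1 count gave 435 higher. These rules add or remove genes by construction. With the longest transcript as length, Mt1 and Mt2 made up 4.46% of the TPM of the group in the Ch25h-/- library and 36.6% in the C57BL/6 library, and with the first-numbered transcript, added after seeing the data, 5.49% in the Ch25h-/- library and 38.0% in the C57BL/6 library. With only the first 250 bases of each promoter window, added after seeing the data, 14 of 26 genes held a metal response element core. No paired analysis was possible because each genotype has 1 library, and for the same reason no library could be left out.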
